A study of Culter alburnus with 6 samples.

Results

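The genes described here encode neuropeptides, peptide hormones and the receptors through which they and the small transmitters act. They were taken as the rows of the assembled transcriptome of a fish fin cell line whose KEGG pathway annotation contains the neuroactive ligand-receptor interaction map, or whose Swiss-Prot gene name is TRH, leaving out rows named for prostaglandin, prostacyclin, thromboxane, leukotriene, complement and nuclear hormone receptors. This gave 175 of 61608 rows. By their names, 89 are G-protein-coupled receptors, 21 are peptide ligands or precursors, 37 are subunits of ligand-gated ion channels, 6 are single-pass hormone receptors and 4 are proteases, and 18 fit none of these kinds.

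RNA was sequenced from TCCF2022, a wild-type line of fibroblast-like cells from the caudal fin of the Topmouth culter (Culter alburnus), on day 7 of culture. The 3 F libraries came from cells given 5 μM Forskolin, for 7 days by the paper's captions, and the 3 CK libraries from cells given none. Forskolin is a plant diterpene that activates adenylyl cyclase and so raises cyclic AMP. Both groups shared the same medium (DMEM/F12 with fetal bovine serum and bFGF), and all 6 libraries come from 1 line, so the comparison is between cultures of that line and not between fish. The paper's methods give 3 biological replicates per group, but the labels do not say whether these were separate cultures. The p-values measure the spread between these libraries only.

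In this class of signalling a secreted peptide, amine, nucleotide or lipid binds a receptor on the cell surface. Most such receptors span the membrane several times and couple to G proteins, of which Gs raises cyclic AMP, Gi lowers it and Gq releases calcium. Others are channels that open on binding, or cytokine-type receptors such as those for leptin and prolactin. Many of the ligands are named for the brain or gut, and are also made by other tissues.

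The names come from matches to proteins of other species and a row is an assembled gene, not a mapped locus, so no genome position is given. Of the 175 rows, 142 carried a Swiss-Prot gene name, with 95 distinct names among them, and where several rows carry 1 name they are numbered here (Sstr3 row 1). A 7-pass receptor domain (Pfam 7tm) was found in 69 of the 89 rows named as G-protein-coupled receptors. Some rows do not match the description of the group: 3 are named as transposon proteins, and others are a glucocorticoid receptor (Nr3c1), the mitochondrial protein Tspo and the cell polarity protein Pard3. Rows of 1 name, and the 50 rows that share an assembly cluster with another member, may be pieces or copies of 1 gene between which reads could be split.

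Levels are in TPM, a share of all transcripts that is corrected for transcript length. Together the members summed to 938.8 to 1116.2 TPM in the F libraries and 941.7 to 1047.3 TPM in the CK libraries, so the summed level overlapped between the groups. At 1 TPM or more there were 101 to 110 members in F libraries and 87 to 97 in CK libraries. A member was tested if 3 or more libraries had it at 1 TPM or above, which left 96, and of these 60 averaged under 5 TPM. The number of reads behind a TPM value is not in the table, so no counting interval is given, and the precision rests on the 3 libraries per group.

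The libraries correlated at 0.8746 to 0.8967 within groups and 0.8284 to 0.8569 between groups. CK replicate 3 had the lowest correlations, at 0.8746 and 0.8819 with the other CK libraries and 0.8284 to 0.8328 with the F libraries. F replicate 3 and CK replicate 1 had equal nonzero TPM in 552 rows, where other pairs had 43 to 186 such rows. The reason for this was not tested. The labelled cell type was checked against markers. Summed fibroblast markers (10 of 14 matched by gene name) lay at 3140 to 4290 TPM in F and 3730 to 4060 TPM in CK. Col1a1, Col1a2, Col3a1 and Thy1 were unmatched. A collagen alpha-1(I) row found by protein name, outside this sum, had 1282.76, 1465.71 and 892.49 TPM in F and 1761.16, 1067.72 and 1297.07 TPM in CK (adjusted p = 0.72). Summed epithelial markers (7 of 9 matched) were at 5470 to 6070 TPM in F and 7050 to 7290 TPM in CK, and the groups did not overlap. The largest epithelial rows were Krt18 (means of 2740 TPM in F and 3490 TPM in CK) and Krt8 (2580 and 2860 TPM). Of the neuronal and neuroendocrine markers, only 2 of 16 were matched, Rbfox3 and Stmn2, and these summed to 5.4 to 6.52 TPM in F and 2.86 to 4.45 TPM in CK. Glial, leukocyte and pigment markers summed to at most 26.5 TPM in any library, and no endothelial or muscle marker was matched by gene name. A row found by a search of protein names, for a kdr-like receptor of vascular endothelial growth factor, had 1.43, 1.68 and 1.86 TPM in F and 9.35, 8.59 and 8.55 TPM in CK (adjusted p = 0.00168). The part of these marker differences in the results below was not tested.

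A member was called when its change in log2(TPM + 1), F minus CK, was beyond 1 in size with an adjusted p under 0.05 (limma, two-sided, adjusted by Benjamini-Hochberg over all 37532 rows tested). Of the 96 tested members, 17 were called higher in F, which is 17.7% where 3.27% of all tested rows were called higher. A further 11 were called lower, or 11.5% where 3.9% of all tested rows were called lower. The remaining 68 were not called. A Swiss-Prot gene name is carried by 16614 of the 61608 rows of the table, and by 142 of the 175 members. The shares over all tested rows are thus not shares over rows named to the same extent. The part of this difference in the counts was not tested. The median change was 0.06 over the members and -0.01 over all tested rows, so the calls stood at both ends of a distribution centred near 0. At the adjusted p alone, 19 members were higher and 14 lower, where all tested rows gave 6.15% and 6.07%. F libraries lay above every CK library in 31 members and below every CK library in 26, against 16.4% and 15.7% of all tested rows, and the groups overlapped in 39.

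The filter bears on these counts. A row that is at 1 TPM or more in 1 group only had to differ to be tested, and 13 tested members had no CK library at 1 TPM while 4 had no F library at that level. These hold 10 of the 17 members called higher and 2 of the 11 called lower. Over the whole table, 58.5% of tested rows with no CK library at 1 TPM were called higher. Of those with no F library at 1 TPM, 53.1% were called lower. Among the 79 tested members at 1 TPM or more in some library of both groups, 7 were called higher (8.86%) and 9 lower (11.4%), where the same kind of row over the whole table gave 1.79% and 2.34%. The log2(TPM + 1) scale also understates the change of low rows, so folds of mean TPM are given beside it. In bulk RNA, fewer cells of a type and less RNA per cell cannot be told apart.

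**Figure D1:**
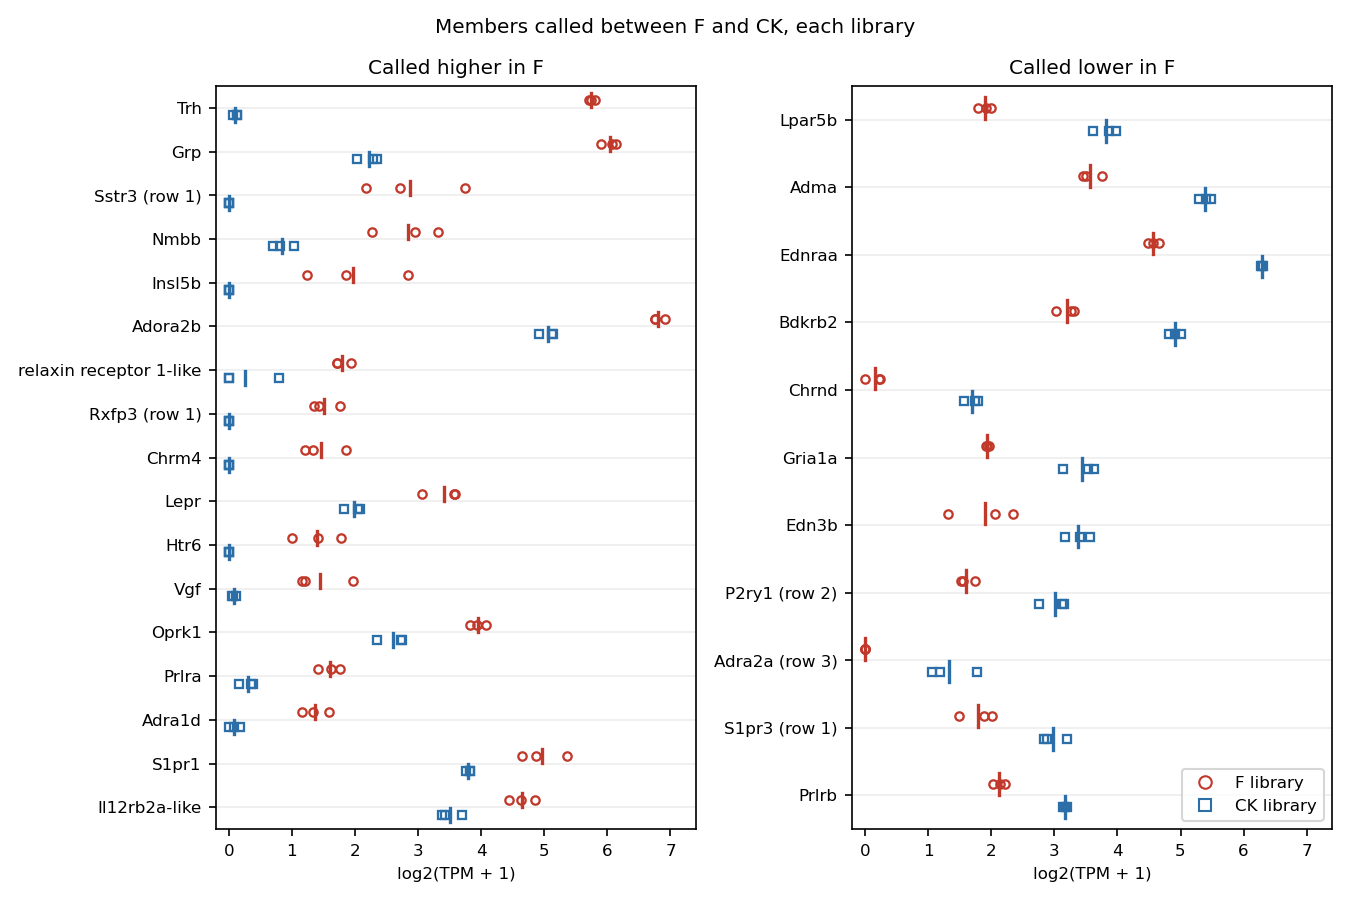
Each called member in every library, as log2(TPM + 1), with members called higher in F on the left and lower in F on the right, ordered by the size of the change. Circles are the 3 F libraries, squares the 3 CK libraries and short lines the group means. Trh and Grp have the largest gaps, and in all 28 members the 3 F libraries lie on one side of the 3 CK libraries.

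Among the ligands, 13 of 21 were tested, 5 were called higher and 2 lower, where 3.27% and 3.9% of all tested rows were. The largest change was in Trh, the precursor of thyrotropin-releasing hormone, a small amidated peptide best known as the hypothalamic signal for thyrotropin release in mammals. Trh (TRINITY_DN29627_c0_g2) had 52.21, 54.56 and 51.54 TPM in the F libraries, against 0.09, 0.09 and 0.05 TPM in the CK libraries. It was close to 0 in every CK library, so it was tested only because of its F libraries, where it lay within a narrow band. The group means were 52.8 ± 1.59 and 0.0767 ± 0.0231 TPM (SD, n = 3 each), a 688-fold ratio whose denominator rests on values of a few hundredths of a TPM. The log2 change was 5.64 (SE 0.12, adjusted p = 1.83e-05 by limma). A row named for the thyrotropin-releasing hormone receptor was listed at 0 in all 6 libraries.

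Grp, gastrin-releasing peptide, is a bombesin-family peptide known for gastrin release and as a growth factor for some cells. Its row (TRINITY_DN36446_c0_g1) had 58.79, 66.28 and 69.39 TPM in F and 3.10, 3.90 and 4.11 TPM in CK. Unlike Trh it was present in every CK library, and its level in F was 17.5-fold that in CK (log2 change 3.81, SE 0.12, adjusted p = 7.56e-05). Nmbb, a copy of neuromedin B, the other bombesin-family peptide of vertebrates, had 6.76, 3.81 and 8.91 TPM in F against 1.05, 0.63 and 0.75 TPM in CK. The groups did not overlap, but the F libraries spread more than for Grp, and the change of 1.99 (SE 0.32, adjusted p = 0.0126) was lost at an adjusted p of up to 0.0556 without F replicate 1 or CK replicate 2. No row was matched by name to a receptor for gastrin-releasing peptide or neuromedin B.

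The other ligands called higher were low. Insl5b, an insulin-like peptide of the relaxin family (its Swiss-Prot match is RLN3), had 1.35, 2.62 and 6.16 TPM in F and was listed at 0 in the 3 CK libraries (adjusted p = 0.0372). Vgf, a secreted neuroendocrine protein that is cut into several peptides, had 1.24, 2.93 and 1.30 TPM in F against 0.08, 0.04 and 0.05 TPM in CK, with an adjusted p of 0.0446. Neither row reached 1 TPM in a CK library, so both were tested only because of their F libraries. Both calls were lost when libraries were left out. Without each library in turn the adjusted p of Vgf was above 0.05 every time, reaching 0.126, and that of Insl5b was above it in 5 of 6 fits, all but that without F replicate 1.

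Endothelins and adrenomedullin, peptides known for their action on vessel tone, included both ligands that were called lower. Adma, adrenomedullin a, had 10.34, 12.55 and 9.91 TPM in F, against 38.08, 41.30 and 43.88 TPM in CK. The libraries of each group lay close together and far from those of the other, with the CK mean 3.76-fold the F mean (log2 change -1.82, SE 0.11, adjusted p = 0.000595). Edn3b, a copy of endothelin-3, had 3.15, 4.06 and 1.49 TPM in F and 10.85, 9.57 and 7.99 TPM in CK (log2 change -1.48, adjusted p = 0.0251), and this call was lost without any 1 of the CK libraries or F replicate 1, at an adjusted p of up to 0.0919. A second endothelin-3 row, Edn3, was the most abundant ligand over the 6 libraries, with 43.62, 44.96 and 42.81 TPM in F against 75.06, 78.32 and 85.80 TPM in CK. It was lower in F in every library (log2 change -0.85, SE 0.07, adjusted p = 0.00168), short of the size needed for a call.

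The tested ligands that did not pass at the adjusted p lay above CK in F or overlapped. Untested ligand rows, which this does not cover, lay above CK, below it or overlapped. Edn2, another endothelin, had 7.22, 10.88 and 7.09 TPM in F and 4.96, 4.61 and 3.47 TPM in CK (adjusted p = 0.0636). Npvf, the precursor of RFamide-related peptides, had 3.54, 4.13 and 4.96 TPM in F and 1.50, 0.94 and 2.25 TPM in CK (adjusted p = 0.0559). In both of these the F libraries were above the CK libraries with no overlap, and in Lep, leptin, they were as well, at 3.72, 2.90 and 2.86 TPM in F and 1.88, 1.76 and 1.22 TPM in CK (adjusted p = 0.125). Vipb and Adcyap1a, of the vasoactive intestinal peptide and PACAP family, overlapped between the groups, with means of 9.93 and 7.83 TPM for Vipb in F and CK and 2.35 and 2.36 TPM for Adcyap1a. An untested row named for VIP-like peptides was listed at 0 in all libraries.

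**Figure D2:**
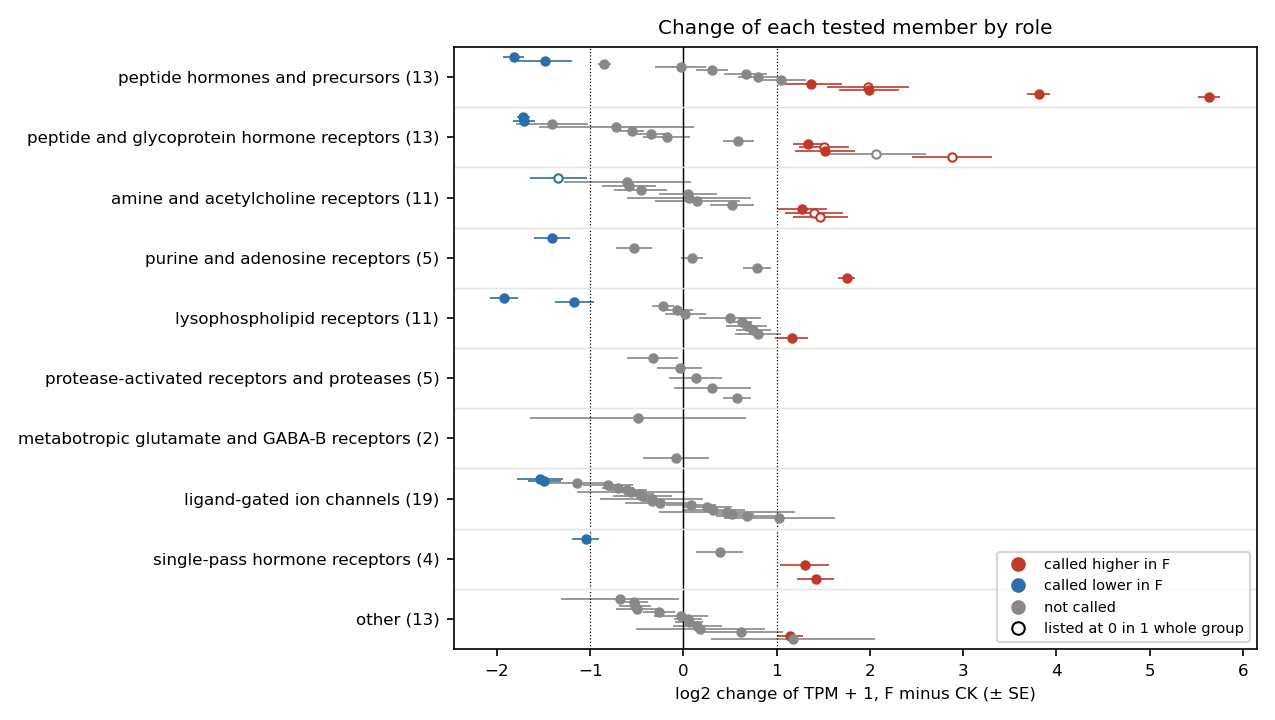
Change of each of the 96 tested members as log2(TPM + 1), F minus CK, with bars of 1 SE, grouped by role with the number tested in brackets. Red points were called higher in F, blue points lower and grey points neither, open points are rows listed at 0 in every library of 1 group, and dotted lines mark a change of 1. Ligands reach furthest to the right. No ligand-gated channel was called higher, which for 19 tested rows is near the 3.27% of all tested rows.

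Of the 36 receptors for peptides and glycoprotein hormones, 13 were tested. Of these, 4 were called higher and 2 lower, where 3.27% and 3.9% of all tested rows were. The 2 that fell were abundant and had little spread. Ednraa, a copy of the endothelin type A receptor, which couples to Gq and contracts smooth muscle in mammals, had 22.53, 24.36 and 21.26 TPM in F and 76.34, 78.01 and 77.41 TPM in CK. The CK libraries differed by under 2 TPM, and their mean was 3.4-fold that of F (log2 change -1.72, SE 0.07, adjusted p = 0.000174). Bdkrb2, the B2 receptor for bradykinin, a Gq-coupled receptor of inflammation and pain, had 8.63, 8.94 and 7.14 TPM in F and 31.18, 27.06 and 29.19 TPM in CK. It stood 3.54-fold higher in CK (log2 change -1.71, SE 0.12, adjusted p = 0.000734). Both endothelin-3 rows and the receptor were thus lower in F, as was Adma, whose receptor is described next.

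Adrenomedullin binds the calcitonin receptor-like receptor together with a RAMP protein. Calcrla, 1 row of that receptor, had 7.97, 9.47 and 6.31 TPM in F and 5.00, 4.58 and 5.02 TPM in CK (log2 change 0.59, adjusted p = 0.0818), and Calcrl row 2 overlapped between the groups at means of 1.66 and 1.98 TPM. A row outside the set, named receptor activity-modifying protein 2 with Ramp1 as its Swiss-Prot match, was higher at 66.12, 51.35 and 54.79 TPM in F against 27.63, 30.02 and 31.77 TPM in CK (log2 change 0.92, adjusted p = 0.00552). Every F library lay above every CK library for Calcrla and for this RAMP row, and below for Adma.

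Oprk1, the kappa opioid receptor, which couples to Gi, was the most abundant peptide receptor called higher. It had 14.28, 13.14 and 15.82 TPM in F and 4.07, 5.69 and 5.61 TPM in CK, a 2.81-fold ratio of means (log2 change 1.34, SE 0.16, adjusted p = 0.00449). The other 3 were at or near 0 in CK. Sstr3 row 1, named for a somatostatin receptor, had 12.42, 5.59 and 3.51 TPM in F and was listed at 0 in every CK library (adjusted p = 0.00999). It was thus tested only because of its F libraries. It is an uncertain match, since its row has no Swiss-Prot name and its KEGG terms also include an actin regulator. Sstr3 row 2, an untested row of the same assembly cluster with Galr1 as its Swiss-Prot match, overlapped between the groups. It had 0.74, 2.16 and 0.58 TPM in F and 0.07, 1.16 and 0.90 TPM in CK. Rxfp3 row 1, a receptor of the relaxin-3 and insulin-like peptide 5 type, had 1.68, 2.38 and 1.56 TPM in F and was listed at 0 in CK (adjusted p = 0.0175), and a relaxin receptor 1-like row had 2.27, 2.82 and 2.30 TPM in F and 0, 0.73 and 0 TPM in CK (adjusted p = 0.0309). The relaxin receptor 1-like name is uncertain as well, since that row has no Swiss-Prot name and its KEGG terms are for a trace amine receptor and a histone. Neither row had a CK library at 1 TPM, so each was tested only because of its F libraries, and each lost its call without at least 4 of the libraries in turn. An untested row matched to the relaxin receptor Rxfp2 was listed at 0 in every F library and at 0, 5.74 and 22.43 TPM in CK.

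Pth1r, the Gs-coupled receptor for parathyroid hormone and its related peptide, had the highest mean of all tested members. It had 74.41, 80.99 and 65.18 TPM in F against 92.95, 106.42 and 125.81 TPM in CK (log2 change -0.55, SE 0.13, adjusted p = 0.0485), so it was lower in F by the test but under the size for a call, and its adjusted p was above 0.05 without any 1 library (0.0511 to 0.134). Avpr2, the Gs-coupled vasopressin V2 receptor, had 3.46, 7.26 and 1.01 TPM in F and was listed at 0 in CK, and the spread between F libraries left its adjusted p at 0.0549. Vipr1b, a receptor for vasoactive intestinal peptide and PACAP, overlapped between the groups at means of 4.24 and 5.6 TPM.

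For amines and acetylcholine, 11 of 21 receptors were tested. Of these, 3 were called higher and 1 lower, all at low levels, where 3.27% and 3.9% of all tested rows were called. Each of these 4 rows reached 1 TPM in 1 group only, so it was tested only because of that group. Adra1d, the Gq-coupled alpha-1D adrenergic receptor, had 2.01, 1.51 and 1.24 TPM in F and 0.06, 0.13 and 0 TPM in CK (adjusted p = 0.0313). Chrm4, the Gi-coupled M4 muscarinic receptor, had 1.51, 1.32 and 2.64 TPM in F, and Htr6, the Gs-coupled serotonin receptor 6, had 1.67, 1.00 and 2.43 TPM. Both were listed at 0 in every CK library (adjusted p = 0.0264 for Chrm4 and 0.0347 for Htr6). Adra2a row 3, a row of the Gi-coupled alpha-2A receptor, ran the other way, being listed at 0 in every F library and at 2.41, 1.08 and 1.27 TPM in CK (adjusted p = 0.0394). None of these 4 kept its call with every library left out in turn, and Adra1d and Adra2a row 3 lost it each time, at adjusted p values of up to 0.101 and 0.112. Chrm2 row 3, named for the M2 receptor but with Chrm4 as its Swiss-Prot match, overlapped between the groups. It had 0.78, 0.86 and 1.84 TPM in F and 0.76, 1.30 and 1.09 TPM in CK (adjusted p = 0.941). TPM summed over rows of the Chrm4 name gave no call (log2 change 0.92, adjusted p = 0.132). The same sum gave no call for Adra1d (log2 change 1.916, adjusted p = 0.13) and kept the call of Adra2a (log2 change -2.244, adjusted p = 0.0147). No F library of any Adra2a row reached 1 TPM, so that sum too was tested only because of its CK libraries. The most abundant tested row of this class, the trace amine receptor Taar13c row 1, spread between 2.99 and 5.57 TPM in F and between 0.65 and 8.35 TPM in CK, with no call.

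Purine receptors moved in both directions. Adora2b, the Gs-coupled adenosine A2B receptor, was the second most abundant tested member, with 119.22, 107.17 and 106.79 TPM in F against 34.06, 33.78 and 29.11 TPM in CK. The lowest F library was far above the highest CK library, and the means of 111.0 ± 7.07 and 32.3 ± 2.78 TPM (SD, n = 3 each) gave a 3.44-fold ratio (log2 change 1.75, SE 0.09, adjusted p = 0.000297). A second adenosine receptor row, called Adora2a here by its Swiss-Prot match, is named A1-like in NR, so its subtype is uncertain. It was higher as well, at 11.17, 9.64 and 8.82 TPM in F against 5.40, 5.91 and 4.59 TPM in CK (log2 change 0.79, adjusted p = 0.0223), short of a call by size, and its adjusted p was above 0.05 in the fits without F replicate 1, F replicate 2 or any 1 CK library, at up to 0.0839. P2ry1, a Gq-coupled receptor for ADP, had 2 tested rows, and the difference between them was not tested. Row 2 had 2.33, 1.92 and 1.86 TPM in F and 7.73, 7.91 and 5.73 TPM in CK (log2 change -1.41, SE 0.19, adjusted p = 0.00769), while row 1 overlapped, with means of 14.6 and 13.6 TPM. The enzyme Entpd1, which breaks down extracellular ATP and ADP and is not a member, was higher in F at 3.17, 3.42 and 2.50 TPM against 0.99, 1.25 and 0.94 TPM in CK (adjusted p = 0.0452).

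Lysophospholipid receptors respond to lysophosphatidic acid (LPA) or sphingosine 1-phosphate (S1P), lipids that act on cell migration and the cytoskeleton. Of 15 rows 11 were tested, 1 was called higher and 2 lower, where 3.27% and 3.9% of all tested rows were. Lpar5b, an LPA receptor, had the largest fall of any member on the log2(TPM + 1) scale, with 2.78, 2.47 and 2.97 TPM in F and 11.23, 13.63 and 14.72 TPM in CK. Its CK mean was 4.82-fold its F mean (log2 change -1.92, SE 0.15, adjusted p = 0.00133). The other LPA receptors were not called. Lpar1 had 6.36, 9.02 and 5.27 TPM in F and 2.63, 3.45 and 4.42 TPM in CK (adjusted p = 0.0971), Lpar3 had 4.33, 6.60 and 7.06 TPM in F and 2.85, 3.54 and 3.55 TPM in CK (adjusted p = 0.104), and neither overlapped between the groups. An Lpar2-like row, the most abundant of the class, did overlap, at means of 64.3 and 66.9 TPM.

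S1P receptors also lay on both sides. S1pr1, a Gi-coupled receptor known for lymphocyte and endothelial traffic, had 28.24, 40.04 and 24.12 TPM in F against 12.47, 13.18 and 13.11 TPM in CK (log2 change 1.16, SE 0.18, adjusted p = 0.0122). S1pr2 was higher by the test at 20.41, 17.48 and 17.00 TPM in F against 11.59, 10.85 and 11.84 TPM in CK (log2 change 0.63, adjusted p = 0.0147), and its adjusted p was above 0.05 without F replicate 1 or any 1 CK library, at up to 0.0699. The 2 rows named S1pr3 lay on opposite sides. Row 1 had 2.70, 3.02 and 1.82 TPM in F and 8.20, 6.37 and 6.12 TPM in CK (log2 change -1.17, adjusted p = 0.0191), and row 2 had 5.66, 5.96 and 4.77 TPM in F and 2.71, 2.42 and 3.45 TPM in CK (log2 change 0.75, adjusted p = 0.0529). S1pr5a overlapped between the groups at means of 29.2 and 34.2 TPM. Its Swiss-Prot match is S1pr1, while the row called S1pr1 here is a hypothetical protein in NR, so the S1pr1 name is uncertain. With TPM summed over rows of 1 gene name the calls of S1pr1 and of S1pr3 row 1 were lost. The call of S1pr1 was lost without F replicate 2, its highest library, or CK replicate 2, at an adjusted p of up to 0.0516, and that of S1pr3 row 1 without any 1 CK library or F replicate 1, at up to 0.075.

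**Figure D3:**
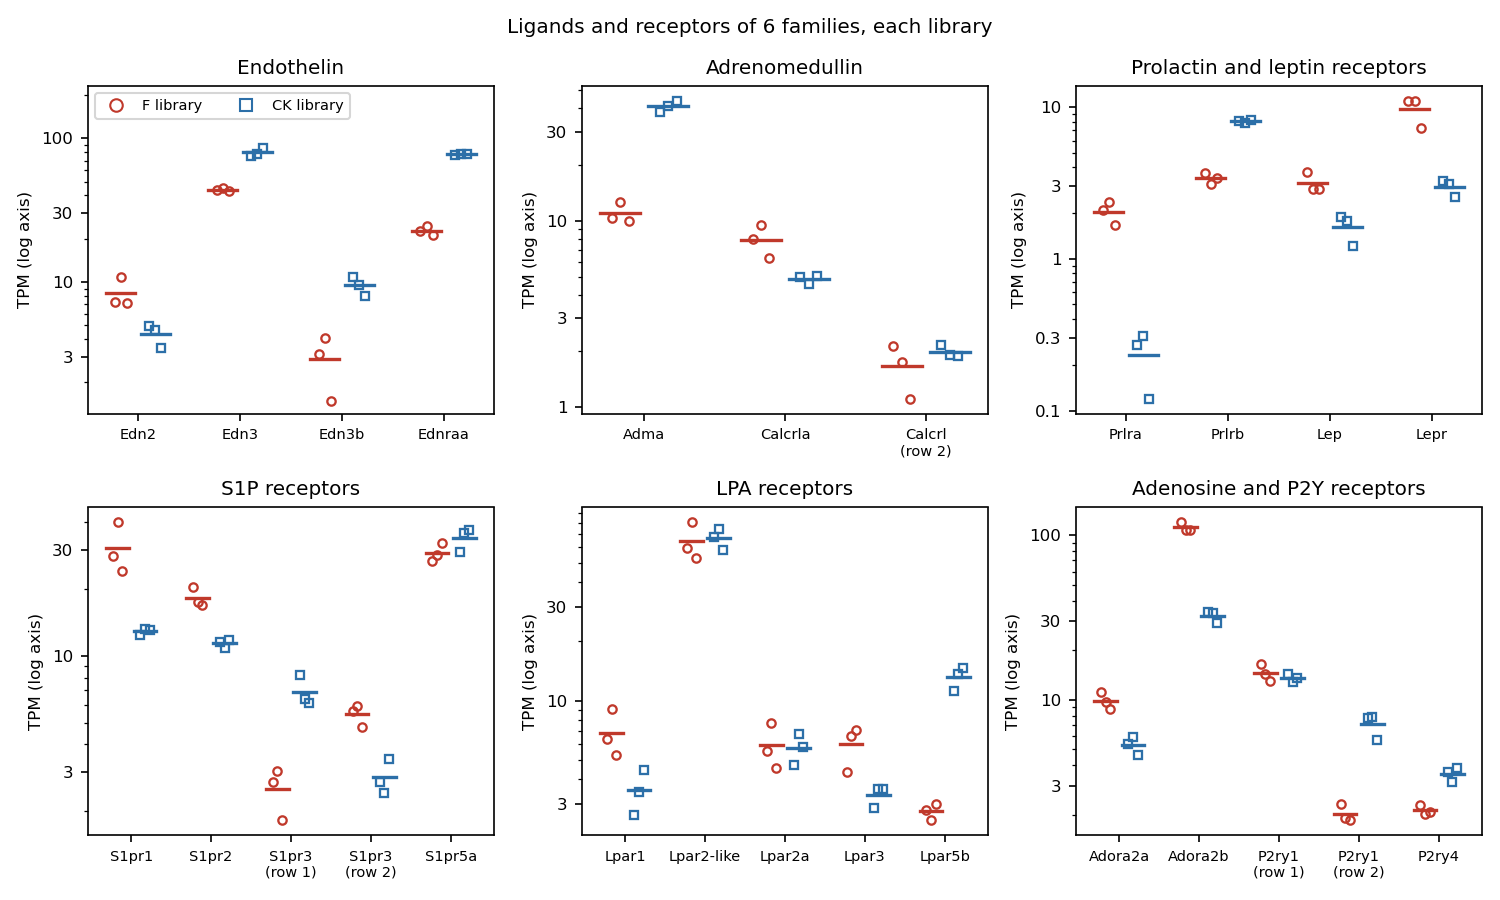
TPM in every library, on a log axis, for the tested ligands and receptors of 6 families, with circles for F, squares for CK and lines at the group means. Edn3, Edn3b, Ednraa and Adma lie lower in F, Adora2a and Adora2b higher, and copies of 1 gene name lie on opposite sides for Prlra and Prlrb and for the 2 S1pr3 rows.

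Protease-activated receptors, counted together with proteases, gave no call among 5 tested rows, and metabotropic glutamate and GABA-B receptors none among 2. For so few rows this is near the 3.27% higher and 3.9% lower of all tested rows. F2r, the thrombin receptor, came nearest, at 8.46, 10.29 and 7.49 TPM in F and 5.60, 5.84 and 5.16 TPM in CK (log2 change 0.57, adjusted p = 0.0635). Its libraries did not overlap between the groups. F2rl3, another protease-activated receptor, ranged from 0.82 to 3.42 TPM in F and 0.78 to 1.71 TPM in CK. Grm7 row 2 ranged from 0 to 5.44 TPM in F and 0 to 11.80 TPM in CK, so the groups overlapped.

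Among the ligand-gated ion channels 19 of 37 rows were tested, none was called higher and 2 were called lower. Over all tested rows 3.27% were called higher and 3.9% lower, so for 19 rows none higher is near that share. Gria1a, a subunit of the AMPA glutamate receptor, had 2.80, 2.92 and 2.79 TPM in F and 7.77, 10.60 and 11.33 TPM in CK, with the CK mean 3.49-fold that of F (log2 change -1.49, SE 0.18, adjusted p = 0.00476). Chrnd, the delta subunit of the muscle nicotinic receptor, had 0, 0.17 and 0.18 TPM in F and 1.95, 2.45 and 2.35 TPM in CK (adjusted p = 0.0143). It had no F library at 1 TPM, so it was tested only because of its CK libraries. Chrnd lost its call without CK replicate 2, CK replicate 3 or F replicate 1, at an adjusted p of up to 0.0663. The F libraries were below all CK libraries in 8 of the 19 rows and above them in 1, where 15.7% and 16.4% of all tested rows did so. P2rx7, an ATP-gated channel, was lower in F by the test, at 20.93, 17.74 and 14.27 TPM against 31.39, 24.14 and 32.03 TPM in CK (log2 change -0.70, adjusted p = 0.0495), but its adjusted p was above 0.05 without any 1 library (0.0583 to 0.149). Gabrb4, a GABA-A receptor subunit and the most abundant channel row, had 25.84, 26.02 and 23.63 TPM in F and 29.78, 31.25 and 35.35 TPM in CK (adjusted p = 0.0675).

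The single-pass receptors for leptin, prolactin and growth hormone signal through JAK kinases. Of 4 tested rows, Lepr and Prlra were called higher and Prlrb lower, where 3.27% and 3.9% of all tested rows were. Lepr, the leptin receptor, had 10.93, 10.95 and 7.31 TPM in F and 3.24, 3.12 and 2.55 TPM in CK, a 3.28-fold ratio (log2 change 1.42, SE 0.20, adjusted p = 0.0085). The 2 prolactin receptor copies moved in opposite directions. Prlra had 2.09, 2.38 and 1.66 TPM in F and 0.27, 0.31 and 0.12 TPM in CK (log2 change 1.30, adjusted p = 0.0258), and Prlrb had 3.66, 3.09 and 3.38 TPM in F and 8.03, 7.82 and 8.22 TPM in CK (log2 change -1.05, SE 0.14, adjusted p = 0.00689). Prlrb was the more abundant copy in both groups, and TPM summed over the rows of this name was lower in F (log2 change -0.53, adjusted p = 0.0494). Prlra had no CK library at 1 TPM, so it was tested only because of its F libraries. Prlra lost its call without any 1 library, and Prlrb without F replicate 2, where its change fell short of the size threshold. The growth hormone receptor row Ghra row 1 was near 1 TPM in both groups, with means of 1.27 and 0.73 TPM (adjusted p = 0.416).

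Of the rows that match the description poorly, 1 of 13 tested was called higher and none lower, where 3.27% and 3.9% of all tested rows were. It is named for an interleukin 12 receptor subunit, with Il6st, the shared receptor of the interleukin-6 family, as its Swiss-Prot match, and had 23.90, 27.95 and 20.78 TPM in F and 11.92, 9.80 and 9.41 TPM in CK (log2 change 1.14, adjusted p = 0.00593). The glucocorticoid receptor row Nr3c1 had 43.21, 59.67 and 40.87 TPM in F and 63.50, 68.24 and 75.07 TPM in CK (log2 change -0.53, adjusted p = 0.0806). Its libraries did not overlap between the groups.

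The 79 untested members were low or patchy. Of these, 2 were listed at 0 in all libraries (the VIP-like row and a GABA-A receptor alpha subunit row) and 14 were above 0 in 1 library only. The highest single value was the 22.43 TPM of the Rxfp2 row. No statement on presence or absence was drawn for these rows, since 1 of 7 housekeeping gene rows was also listed at 0 in all libraries of a group.

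Other annotations of the members were compared. The pathways come from the same KEGG annotation that the choice of rows used, and a row can be in both. The KEGG cyclic AMP pathway also held 18 of the tested members, of which 3 were called higher and 3 lower, and the KEGG calcium pathway held 16, of which 4 were higher and 2 lower. Of the 69 tested members in neither, 12 were called higher and 7 lower. The 42 tested members with a 7tm domain gave 6 higher and 6 lower calls. Over all tested rows 3.27% were called higher and 3.9% lower.

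**Figure D4:**
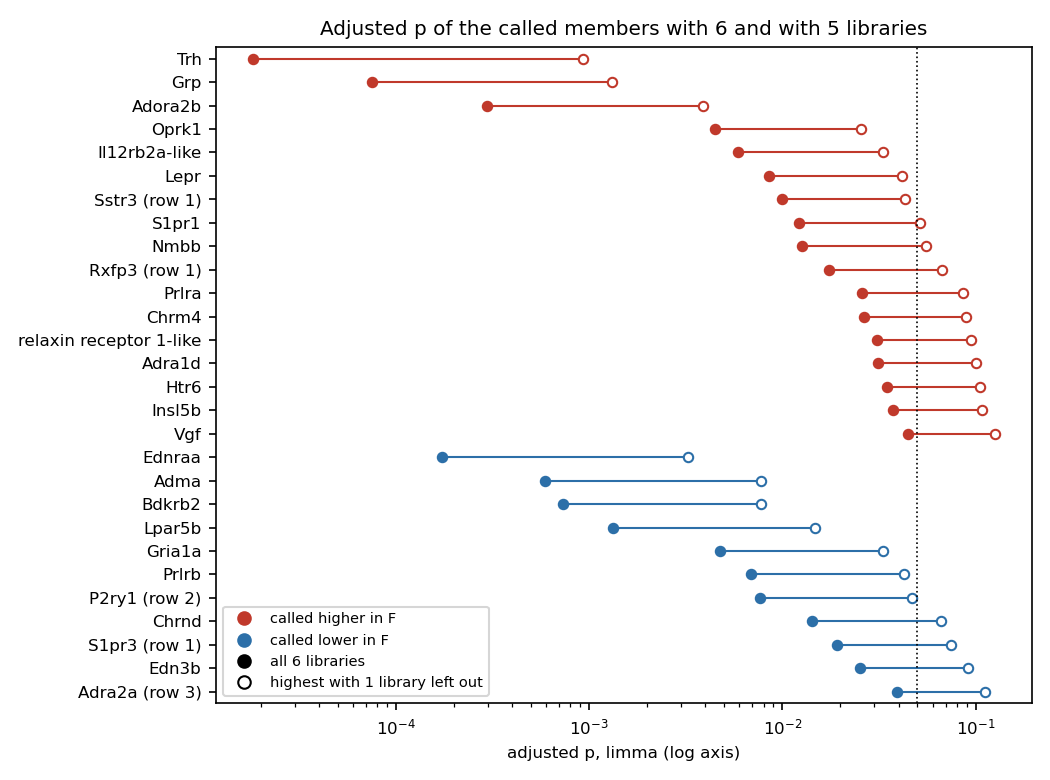
Adjusted p (limma, log axis) of the 28 called members with all 6 libraries (filled) and the highest value with 1 library left out (open), red for members higher in F and blue for lower, with the dotted line at 0.05. Trh, Grp, Adora2b, Ednraa, Adma and Bdkrb2 stay furthest below the line, and 14 members stay below it with any 1 library left out.

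With each library left out in turn, 13 of the 28 calls were made in all 6 fits. These were Trh, Grp, Sstr3 row 1, Adora2b, Lepr, Oprk1 and the Il12rb2a-like row among those higher in F, and Lpar5b, Adma, Ednraa, Bdkrb2, Gria1a and P2ry1 row 2 among those lower. Of these, Trh and Sstr3 row 1 had no CK library at 1 TPM and were tested only because of their F libraries. The filter was set on all 6 libraries and not redone, so these fits do not test its part. Over the members with a group mean of at least 5 TPM, 9 of 46 tested were called higher and 9 lower, where all such rows gave 4.23% and 5.36%. Over those below that level the counts were 8 higher and 2 lower of 50 tested, where all such rows gave 2.52% and 2.74%.

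Other genes of peptide signalling were counted at an adjusted p under 0.05, where 6.15% of all tested rows were higher and 6.07% lower. Prohormones are cut, amidated and capped by a short series of enzymes. The list also holds granule proteins and Pamr1, an inactive serine protease that is no such enzyme. Of its 15 tested rows 2 were higher and 3 lower, 1 of the 3 being Pamr1. Pam, the enzyme that amidates peptides such as thyrotropin-releasing hormone, had 42.35, 48.21 and 41.56 TPM in F and 32.93, 32.46 and 34.35 TPM in CK (log2 change 0.39, adjusted p = 0.0293), and the convertase Pcsk6 had 25.06, 27.21 and 30.47 TPM in F and 18.95, 19.85 and 17.05 TPM in CK (log2 change 0.54, adjusted p = 0.0237). The convertase Pcsk7 was lower, at 344.19, 307.62 and 244.32 TPM in F and 576.68, 485.89 and 422.59 TPM in CK (log2 change -0.73, adjusted p = 0.0381). Cpz, carboxypeptidase Z, a secreted enzyme, was lower as well, at 3.69, 2.62 and 2.15 TPM in F and 16.11, 16.06 and 13.67 TPM in CK (log2 change -2.11, adjusted p = 0.00182). Carboxypeptidase E, which trims cut peptides in granules, had 3.33, 2.45 and 2.97 TPM in F and 1.79, 1.75 and 1.99 TPM in CK (adjusted p = 0.243). No row was matched by name to a neuroendocrine convertase, chromogranin or secretogranin.

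Enzymes that break peptides down gave 4 higher and 4 lower of 16 tested rows. Ace, angiotensin-converting enzyme, which also breaks down bradykinin, had 1.96, 2.56 and 1.90 TPM in F and 11.06, 10.57 and 11.14 TPM in CK (log2 change -1.93, SE 0.15, adjusted p = 0.0013). It was lower in F in every library, as was Bdkrb2. The endothelin-converting enzymes Ece1 and Ece2 were lower by less, with log2 changes of -0.44 and -0.49. Rows named for aminopeptidase N lay on both sides, with log2 changes of 1.34, 0.95 and -1.07. A pair of Dpp4 rows, of dipeptidyl peptidase 4, were the other higher ones, at 5.66, 2.28 and 3.69 TPM (adjusted p = 0.0101) and at 1.89, 5.06 and 2.75 TPM (adjusted p = 0.016) in F, and both were listed at 0 in CK. Both Dpp4 rows were thus tested only because of their F libraries, and they are part of the count of higher rows. Of 10 tested rows for receptor desensitization and trafficking, 2 were higher and 1 lower. Grk5, a kinase that phosphorylates active G-protein-coupled receptors, had 13.74, 17.20 and 12.24 TPM in F and 3.60, 3.15 and 3.03 TPM in CK (log2 change 1.84, adjusted p = 0.00182). The accessory protein Mrap2a of melanocortin receptors was lower, at 0.84, 0.90 and 2.71 TPM in F and 4.40, 5.75 and 6.27 TPM in CK (log2 change -1.45, adjusted p = 0.0403).

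Enzymes that make or break small transmitters gave 1 higher and 3 lower of 11 tested rows, the higher one being Entpd1. Hnmt, which inactivates histamine, had 5.15, 5.94 and 7.49 TPM in F and 24.53, 28.43 and 26.18 TPM in CK (log2 change -1.94, adjusted p = 0.00106). Mao, a monoamine oxidase, had 27.20, 27.81 and 28.67 TPM in F and 45.14, 64.40 and 68.02 TPM in CK (log2 change -1.04, adjusted p = 0.0109). In both, each F library lay below each CK library.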

How the data were processed

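RNA-seq covered 6 libraries of TCCF2022 cells, taken on day 7, 3 with 5 μM Forskolin (F) and 3 without (CK). The authors deposited 1 table of TPM per assembled gene. Per the paper's methods reads were assembled with Trinity and TPM estimated with RSEM, while the submitters' processing notes name TopHat2 2.1.1, Cufflinks 2.2.1, RSEM 1.3.3 and DESeq2 1.24.0, so the exact route is not settled. TPM corrects for transcript length and is a share of a fixed total per library, so a rise in some rows lowers others. The values carry 2 decimals and keep no read depth. The columns of authors' group means were not used.

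Rows that reached 1 TPM in 3 or more of the 6 libraries entered the test. A linear model of log2(TPM + 1) was fitted in R 4.3.3 by limma 3.58.1 (eBayes trend, no covariate, two-sided, Benjamini-Hochberg over 37532 rows) and called at an adjusted p under 0.05 with a change beyond 1. No count model was run, since TPM are not counts. An exact permutation test of 3 against 3 libraries cannot go below p = 0.1 and was not used. The fit was tested on simulated data. Tables used pandas 2.3.3, NumPy 2.4.6 and Python 3.11.15, and figures matplotlib 3.10.9.

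Members, roles, gene lists and marker lists were chosen with earlier results of these data known. Named are all called members, per role the most abundant member and the 3 with the smallest adjusted p, members listed at 0 in all libraries, and per list the most abundant gene and the 4 with the smallest adjusted p. Members outside this rule (Edn2, Npvf, Lep, Vipb, Adcyap1a, Avpr2, Vipr1b, both Calcrl rows, Sstr3 row 2, Chrm2 row 3, P2ry1 row 1, Lpar1, Lpar3, S1pr3 row 2, S1pr5a, Ghra row 1, Tspo, Pard3 and Rxfp2), Ece2, the third aminopeptidase N row, carboxypeptidase E, both Dpp4 rows, the markers given by value and the searches by name for receptors, a collagen, a vessel marker and granule proteins were chosen after their values were seen. Alternatives changed the pseudocount, filter, scaling, variance trend, replicate block, row summing, call rule and libraries used. No sequence was matched to the assembled rows here, so none is printed. A result on 1 member is not reported here.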

Additional observations from a re-analysis of the deposited data

How the results depend on the processing

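Scaling moved the member calls less than the filter, the block or a left-out library did. The 17 members called higher became 10 with no filter, 7 with a filter at 5 TPM (which removes low rows from the test), 9 with the replicate block and 8 to 11 with 1 library left out. The 11 called lower became 7 with TPM summed over rows of 1 gene name and 7 to 11 with 1 library left out. Over all tested rows the 1229 called higher became 613 at 5 TPM, 655 with the replicate block, 2310 with no size threshold and 696 to 1043 with 1 library left out, and the 1465 called lower became 786, 799, 2277 and 812 to 1163 under the same settings. With quantile normalization 19 members were higher and 11 lower, and with median-of-ratios scaling 18 and 11. Summing rows of 1 gene name turned 2 directions, since the sum mixes rows that moved differently: Prlra, summed with Prlrb, had a log2 change of -0.529 (adjusted p = 0.0494), and the Il12rb2a-like row, summed over Il6st, -0.067 (adjusted p = 0.555). The labels do not say whether the replicate numbers pair the samples. Deviations of same-numbered F and CK libraries correlated at 0.006 to 0.009, and those of other-numbered libraries at -0.007 to 0.0. Such small values over mostly low rows cannot decide whether the cultures were paired. Of the 28 called members 11 kept their call in every alternative in which they were tested. None of the 15 named members without a call gained one in an alternative that kept the size threshold. With no size threshold 19 members were higher and 14 lower. The gains were S1pr2 and Adora2a as higher and Edn3, Pth1r and P2rx7 as lower, all of them named members without a call. Read depth is not kept by TPM, so members near 1 TPM are limited by an unknown counting error.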

Other observations

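Hormones outside the pathway annotation were counted in the same way. Stc2, stanniocalcin-2, a secreted glycoprotein of the family known in fish for calcium balance, had the widest gap of the named genes. It had 2.33, 2.46 and 2.96 TPM in F, against 1848.72, 1838.93 and 1918.56 TPM in CK (log2 change -9.03, adjusted p = 5.82e-07 by limma). Igf2b, a copy of insulin-like growth factor 2, was lower too, at 5.00, 5.12 and 2.84 TPM in F and 14.60, 17.27 and 18.49 TPM in CK (log2 change -1.77, adjusted p = 0.00536), while an Npr1 row, named for a natriuretic peptide receptor that makes cyclic GMP, had 15.21, 17.13 and 13.40 TPM in F and 6.77, 6.37 and 6.66 TPM in CK (log2 change 1.09, adjusted p = 0.00397). Each F library lay on one side of each CK library for all of these. Of 7 tested rows in that list 1 was higher and 2 lower.

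Marker lists moved in part. Of 9 tested epithelial rows 1 passed the adjusted p as higher in F and 3 as lower. Epcam had 32.52, 29.28 and 31.57 TPM in F and 90.49, 83.72 and 77.22 TPM in CK (log2 change -1.40, adjusted p = 0.000542), while GRHL2, an epithelial transcription factor, had 2.36, 1.77 and 1.89 TPM in F and 0.16, 0.68 and 0 TPM in CK (log2 change 1.26, adjusted p = 0.0475). GRHL2 had no CK library at 1 TPM, so it was tested only because of its F libraries. Of 15 tested fibroblast rows 2 were higher and 3 lower. Decorin had 1554.92, 1765.92 and 1396.18 TPM in F and 740.26, 914.80 and 993.04 TPM in CK (log2 change 0.84, adjusted p = 0.0167), while lumican had 302.61, 310.46 and 214.36 TPM in F and 1297.86, 1468.13 and 1557.84 TPM in CK (log2 change -2.40, adjusted p = 0.000745). A periostin row had 0.09, 0.09 and 0.04 TPM in F and 18.80, 19.77 and 21.12 TPM in CK (log2 change -4.28, adjusted p = 0.000119), and was tested only because of its CK libraries. Another periostin row of the same assembly cluster lay on the other side. It had 16.56, 19.90 and 10.77 TPM in F and 7.02, 7.31 and 8.82 TPM in CK (log2 change 0.91, adjusted p = 0.0524). Whether these shifts bear on the members was not tested.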
